A study of Homo sapiens with 4 samples.

Results

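A set of 41 such genes was described here, chosen by name as ER stress sensors, chaperones and ERAD genes. All 41 had a row among the 20263 of the deposited count table, and all 41 passed the low-count filter that left 13879 genes for testing. By role they comprised 8 genes of sensing and signalling, 20 of folding (13 chaperones and their partners, and 7 oxidoreductases), 2 of the translocation channel and 11 of degradation. RNA was sequenced from MDA-MB-231 cells, a long-established human line of triple-negative breast cancer, in 2 groups of 2 libraries each: cells exposed for 24 h to Neoribocic, and cells given DMSO, the solvent. The series title links the compound to a cell cycle block, the treatment protocol calls it Rib_CA, and the sources used here give no dose. Whether the libraries of 1 group were grown as different cultures is not stated, so a p-value here reflects the spread among these 4 libraries, and that spread may be technical.

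The endoplasmic reticulum (ER) folds proteins that enter the secretory pathway, and the unfolded protein response adjusts its capacity. The sensors IRE1 (gene ERN1), ATF6 and PERK (gene EIF2AK3) sit in the ER membrane and are held back by the chaperone BiP (gene HSPA5). IRE1 splices the mRNA of the transcription factor XBP1, ATF6 is cut by the Golgi proteases encoded by MBTPS1 and MBTPS2, and both routes raise genes for chaperones and for ER-associated degradation (ERAD), which returns misfolded proteins to the cytosol for destruction.

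Library totals were 41572094 and 43014212 counts with Neoribocic, and 34774542 and 37754168 with DMSO. VIM, CD44, AXL and FN1, markers high in this line, reached at least 321 CPM (counts scaled to a common library size) in every library, whereas ESR1, PGR, CDH1, PTPRC, CD3E, COL3A1 and PECAM1 stayed at or below 1.77 CPM, and EPCAM stood at 9.31 to 9.93 CPM. Mitochondrial genes held 21.7% of the counts in DMSO replicate 2, and 5.76% to 8.68% in the other libraries. Levels below are CPM scaled by TMM (trimmed mean of M-values), changes are log2 fold changes of Neoribocic over DMSO with their standard error (SE), and adjusted p-values are those of edgeR's quasi-likelihood test, adjusted by Benjamini-Hochberg across every gene tested and read at 0.05. Gene counts do not separate spliced from unspliced XBP1 mRNA and do not measure the activity of a sensor, and in bulk RNA fewer expressing cells and less RNA per cell cannot be told apart.

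A minority of the set carried the ER stress response element (ERSE) in its promoter windows, the site bound by ATF6 or XBP1 together with NF-Y. It was searched as CCAAT, 9 bases of any kind and CCACG, and its relative ERSE-II as ATTGG, any base and CCACG, on both strands of RefSeq promoter windows of 300 bases (build GRCh38.p14, from 250 bases before to 50 after the gene start). Of the 41 genes 38 had a window, and 7 of these had several. An ERSE lay in the windows of 8 of these 38 genes, or 21.1%, against 25 of 27305 genes, or 0.092%, in the whole table, and an ERSE-II in 3 of 38 against 19 of 27305. The whole table includes these 38 genes, and the set was chosen by name as ER stress genes, so the contrast is a description. The stretches below are those of 4 genes that rose, of HSP90B1, which fell, and of HERPUD1, which did not pass the threshold, so that the same element can be set beside different responses. Each stretch runs 5′ to 3′ on the strand of its gene, and capitals mark matches. The capitals are an ERSE in HSPA5, XBP1, CRELD2 and HSP90B1, an ERSE-II in SDF2L1, and in HERPUD1 first the core of the ATF4 element (TGATGCAA, here on the opposite strand) and then an ERSE-II.
HSPA5 (chr9:125241371-125241429, minus strand): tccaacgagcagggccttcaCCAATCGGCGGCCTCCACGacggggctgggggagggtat
XBP1 (chr22:28800583-28800641, minus strand): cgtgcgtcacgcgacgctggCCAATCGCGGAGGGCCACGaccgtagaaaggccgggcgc
CRELD2 (chr22:49918534-49918592, plus strand): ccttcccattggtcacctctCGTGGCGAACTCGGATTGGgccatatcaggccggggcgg
SDF2L1 (chr22:21642094-21642144, plus strand): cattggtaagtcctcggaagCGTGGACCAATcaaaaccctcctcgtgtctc
HSP90B1 (chr12:103930196-103930359, plus strand): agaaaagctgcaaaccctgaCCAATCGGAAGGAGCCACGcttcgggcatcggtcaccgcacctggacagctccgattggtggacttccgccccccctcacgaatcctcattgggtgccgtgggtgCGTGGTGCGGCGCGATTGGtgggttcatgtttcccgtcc
HERPUD1 (chr16:56931946-56932055, plus strand): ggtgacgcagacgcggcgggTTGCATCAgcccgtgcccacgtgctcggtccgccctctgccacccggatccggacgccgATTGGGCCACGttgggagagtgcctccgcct

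With Neoribocic 12 of the 41 genes rose, 6 fell and 23 did not pass the threshold. These 18 calls are 43.9% of the set, close to the 40.4% of all tested genes that were called (19.1% higher and 21.3% lower), so the number of calls does not set the genes apart. Of the calls 66.7% were higher in the set and 47.2% over all tested genes, and with library totals in place of TMM these shares were 70.0% and 59.6%. Leaving out 1 library changed this split. The set had 6 rises and 6 falls without DMSO replicate 1, 4 and 6 without DMSO replicate 2, 2 and 3 without Neoribocic replicate 1, and 7 and 7 without Neoribocic replicate 2. In the same fits 50%, 40.0%, 40.0% and 50% of the calls in the set were higher, against 43.0%, 41.2%, 40.6% and 48.8% of those over all tested genes. At a threshold of 0.01 the higher share was 25.0% in the set and 39.5% over all tested genes. With mitochondrial genes left out the set again had 12 rises and 6 falls. The 2 Neoribocic libraries lay on one side of both DMSO libraries for 32 of the 41 genes, or 78.0%, against 75.1% of all tested genes. Both lay above in 17 of the 41 and below in 15, against 37.8% and 37.3% of all tested genes. The median log2 fold change was 0.10 over the set and 0.01 over all tested genes. The summed level of the 41 genes was 10700 and 10920 CPM with Neoribocic, and 10340 and 10730 CPM with DMSO. The total was nearly the same in all 4 libraries while single genes changed in opposite directions, with log2 fold changes of 1.96 for ERN1 and 1.45 for SDF2L1 at one end, and of -1.43 for EDEM3 and -1.39 for DNAJC10 at the other.

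**Figure D1:**
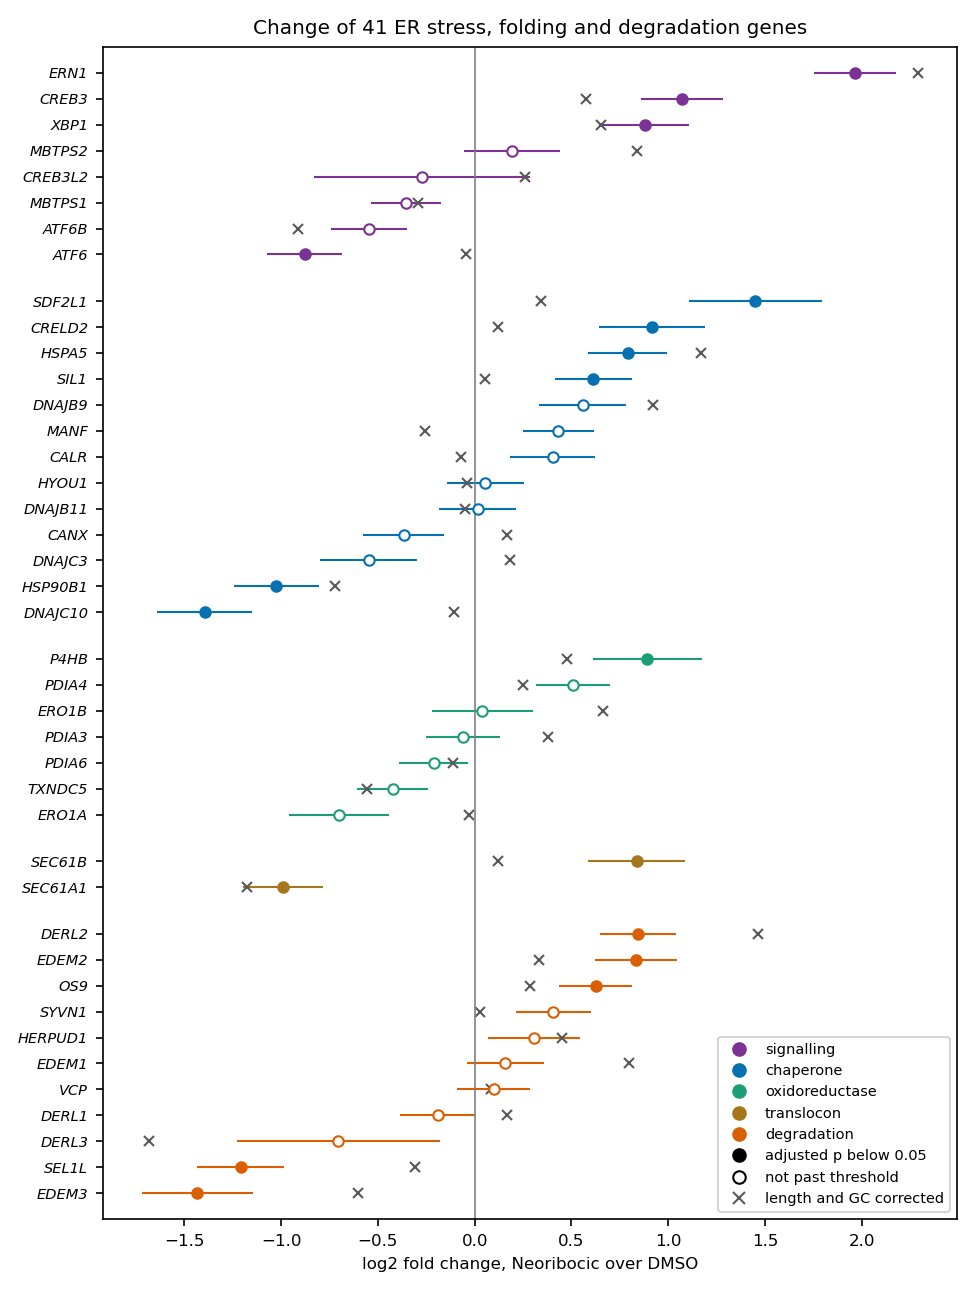
Log2 fold change of Neoribocic over DMSO (x axis) for each of the 41 genes by role, as dots with bars of 1 SE, filled where the adjusted p was below 0.05, with crosses for the value corrected for transcript length and GC content. ERN1 at 1.96 stands highest and EDEM3 at -1.43 lowest, and each role has dots on both sides of 0.

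Changes in these libraries followed transcript length and GC content, and this bears on every value below. Across 13862 genes the log2 fold change had a Spearman correlation of -0.401 with transcript length and 0.448 with GC content, and across the 41 genes of the set it was -0.502 and 0.473 (descriptions, since genes share the same libraries). Neoribocic replicate 2 over replicate 1 followed the same properties within the set, at 0.718 and -0.754. The 12 genes that rose had a median transcript of 1921 bases and 54.6% GC, and the 6 that fell one of 7197 bases and 40.3% GC. A fit corrected for both properties is therefore given beside the uncorrected one. It called 36.1% of all genes (16.6% higher and 19.5% lower) and 14 of the 41, or 34.1% (8 higher and 6 lower), and 7 of the 18 calls kept their direction and significance. These were ERN1, CREB3, HSPA5 and DERL2, which were higher, and HSP90B1, SEC61A1 and EDEM3, which were lower.

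**Figure D2:**
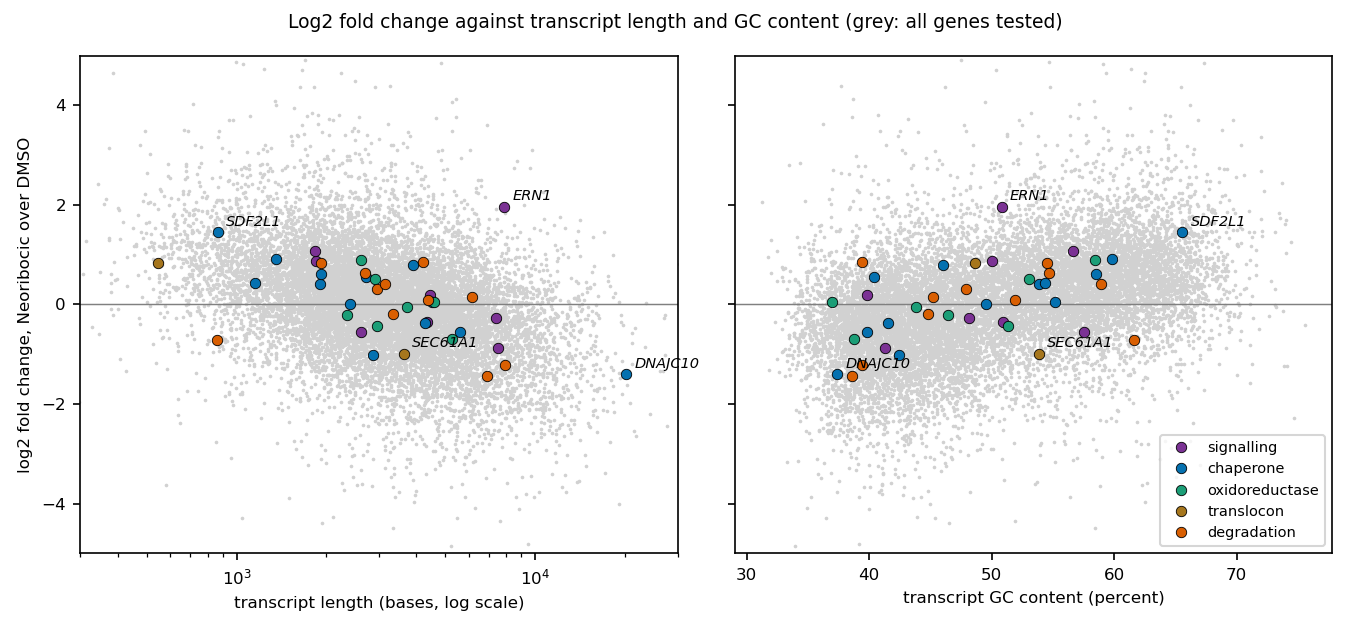
Log2 fold change of Neoribocic over DMSO (y axis) against transcript length in bases on a log scale (left) and GC content in percent (right), with all tested genes in grey and the 41 genes coloured by role; 68 of 13862 genes fall outside the axes. The grey cloud slopes down with length and up with GC content, SDF2L1 and DNAJC10 lie along it, and ERN1, at 1.96 on a long transcript, lies well above it.

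Among the sensors, ERN1 rose and ATF6 fell. ERN1 (ENSG00000178607), the IRE1 kinase and endoribonuclease that splices XBP1, had 66.5 and 74.5 CPM in Neoribocic libraries, against 17.9 and 18.2 CPM in DMSO libraries. The groups were far apart and each was tight, giving a 3.90-fold rise (log2 1.96 ± 0.21 SE; edgeR adjusted p = 7.83e-04). The correction left it at 2.29 (edgeR adjusted p = 0.00252), and it stayed below the threshold without any 1 of the 4 libraries (highest edgeR adjusted p = 0.00953). ATF6 (ENSG00000118217), the sensor that becomes a transcription factor once cut, had 73.3 and 84.4 CPM with Neoribocic, against 153 and 137 CPM with DMSO. It fell by 0.88 ± 0.19 (edgeR adjusted p = 0.00877), but its transcript is long at 7496 bases, and the corrected value was -0.05 (edgeR adjusted p = 0.797). Without Neoribocic replicate 1 its edgeR adjusted p was 0.0758. ATF6B (ENSG00000213676), its close relative and a weaker activator, had 126 and 113 CPM with Neoribocic, against 157 and 192 CPM with DMSO. Both Neoribocic libraries were below both DMSO libraries, yet the log2 fold change of -0.54 ± 0.20 missed the threshold (edgeR adjusted p = 0.0555), while the corrected one of -0.91 passed (edgeR adjusted p = 0.00574). Of the exon bases of ATF6B 9.9% overlap AL662884.2 and TNXB on the same strand. Within a library, ERN1 stood at 0.906 and 0.882 of the ATF6 level in CPM with Neoribocic, against 0.117 and 0.133 with DMSO. The third sensor, PERK, stands outside the set, and its gene EIF2AK3 fell to 16.1 and 24.7 CPM with Neoribocic, against 40.9 and 47.0 CPM with DMSO (log2 -1.11 ± 0.26; edgeR adjusted p = 0.0119). That call was lost without DMSO replicate 2, without Neoribocic replicate 1 and with the correction (edgeR adjusted p = 0.0582, 0.0837 and 0.0667).

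Downstream of the sensors, XBP1 and CREB3 rose and the cleaving proteases did not pass. XBP1 (ENSG00000100219), the transcription factor made from the IRE1-spliced mRNA, had 118 and 121 CPM with Neoribocic, against 76.9 and 52.8 CPM with DMSO. It rose by 0.88 ± 0.23 (edgeR adjusted p = 0.0169), with both Neoribocic libraries alike and the DMSO libraries apart. Its call was lost without DMSO replicate 2, Neoribocic replicate 1 or Neoribocic replicate 2 (edgeR adjusted p = 0.0823, 0.0685 and 0.0604) and with the correction (log2 0.65; edgeR adjusted p = 0.0692). CREB3 (ENSG00000107175), an ER-anchored transcription factor released by the same proteases, had 120.3 and 92.2 CPM with Neoribocic, against 51.1 and 50 CPM with DMSO. It rose by 1.07 ± 0.21 (edgeR adjusted p = 0.00576), was 0.57 with the correction (edgeR adjusted p = 0.0284), and stayed below the threshold without any 1 library (highest edgeR adjusted p = 0.0483). Of its exon bases 10.5% overlap genes on the opposite strand. CREB3L2, a relative of CREB3, had 56.4 and 77.5 CPM with Neoribocic, against 40.0 and 122 CPM with DMSO, so the Neoribocic libraries lay between the DMSO libraries. MBTPS1, the protease that makes the first cut in ATF6, stood at -0.36 ± 0.18, and MBTPS2, which makes the following cut, at 0.19 ± 0.25 (edgeR adjusted p = 0.144 and 0.561). With the correction MBTPS2 was at 0.84 (edgeR adjusted p = 0.0157). The 8 signalling genes thus had 3 rises, 1 fall and 4 without a call, against 40.4% of all tested genes called. Their median of -0.04 turned positive at 0.16 with library totals.

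The abundant chaperones of the ER lumen moved apart. HSPA5 (ENSG00000044574), which encodes BiP, the ER member of the HSP70 family, had 1633 and 1813 CPM with Neoribocic, against 1053 and 939.5 CPM with DMSO. The groups did not overlap, and it rose 1.73-fold (log2 0.79 ± 0.20; edgeR adjusted p = 0.0166). Its corrected value was 1.17 (edgeR adjusted p = 0.00431), while the uncorrected call was lost without DMSO replicate 2, Neoribocic replicate 1 or Neoribocic replicate 2 (edgeR adjusted p = 0.0556, 0.0630 and 0.0762). HSP90B1 (ENSG00000166598), which encodes GRP94, the ER member of the HSP90 family, had 455.5 and 581 CPM with Neoribocic, against 1157 and 950.4 CPM with DMSO. It fell by 1.02 ± 0.22 (edgeR adjusted p = 0.00766), and by 0.72 with the correction (edgeR adjusted p = 0.0155). Without Neoribocic replicate 1 the call was lost (log2 -0.85; edgeR adjusted p = 0.0766). Of the 50-base words of the HSP90B1 transcript 8.1% also occur in other genes, pseudogenes of HSP90B1 among them. For HSPA5 the share is 9.6%, with AC105250.1, AL354702.1 and SMAD9 among the sharing genes. Within a library the ratio of HSPA5 to HSP90B1 in CPM was 3.59 and 3.12 with Neoribocic, against 0.910 and 0.989 with DMSO, so genes that both carry ERSEs and are textbook ATF6 targets did not change together. CALR, the lectin chaperone calreticulin, had the highest level per kilobase of transcript in both groups, at 871 CPM per kilobase with Neoribocic and 659 with DMSO, and stood at a log2 fold change of 0.40 ± 0.22 (edgeR adjusted p = 0.173). Its membrane-bound relative CANX, calnexin, stood at -0.37 ± 0.21 (edgeR adjusted p = 0.190), and the large HSP70 relative HYOU1 at 0.06 ± 0.20 (edgeR adjusted p = 0.844).

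BiP works with J-domain partners and nucleotide exchange factors. In the uncorrected fit DNAJC10 fell, SIL1 rose, and DNAJB9, DNAJB11 and DNAJC3 did not pass, where 40.4% of all tested genes were called. DNAJC10 (ENSG00000077232), a J-protein that also reduces disulfides of ERAD clients, had 44.5 and 62.7 CPM with Neoribocic, against 161 and 121 CPM with DMSO. It fell by 1.39 ± 0.25 (edgeR adjusted p = 0.00361), but on a transcript of 20129 bases and 37.4% GC, and its corrected value was -0.10 (edgeR adjusted p = 0.546). DNAJB9 (ENSG00000128590), a J-protein that binds IRE1 and a textbook target of spliced XBP1, had 23.2 and 27.6 CPM with Neoribocic, against 16.9 and 17.6 CPM with DMSO. The groups were separate, at a log2 fold change of 0.56 ± 0.23 that missed the threshold (edgeR adjusted p = 0.0788) and passed at 0.92 with the correction (edgeR adjusted p = 0.0113). DNAJB11 and DNAJC3, further J-proteins of the ER, stood at 0.01 ± 0.20 and -0.55 ± 0.25 (edgeR adjusted p = 0.959 and 0.110). DNAJB11 shares 31.3% of its 50-base words with other genes, AC068631.2 and TBCCD1 among them, so its value is uncertain. SIL1 (ENSG00000120725), an exchange factor for BiP, had 75.3 and 67.4 CPM with Neoribocic, against 45.7 and 47.5 CPM with DMSO, and rose by 0.61 ± 0.20 (edgeR adjusted p = 0.0389). SIL1 was close to the threshold: its call was lost without any 1 of the 4 libraries (edgeR adjusted p of 0.0715 to 0.173), with the replicate number as a block (0.0730) and with the correction (log2 0.05; 0.775).

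The small luminal proteins SDF2L1 and CRELD2 rose in the uncorrected fit. SDF2L1 (ENSG00000128228), which works with the J-protein DNAJB11 to keep clients soluble, had 31.6 and 15.9 CPM with Neoribocic, against 9.31 and 8.08 CPM with DMSO. It rose 2.73-fold (log2 1.45 ± 0.34; edgeR adjusted p = 0.0131), with Neoribocic replicate 1 well above replicate 2. CRELD2 (ENSG00000184164), a secreted ER stress protein with cysteine-rich domains, had 33.4 and 21.3 CPM with Neoribocic, against 13.5 and 15.5 CPM with DMSO, and rose by 0.92 ± 0.27 (edgeR adjusted p = 0.0287). Both are short and rich in GC, at 865 and 1357 bases and 65.5% and 59.8%, and their corrected values were 0.35 and 0.12 (edgeR adjusted p = 0.269 and 0.618). Both calls were also lost without DMSO replicate 1, DMSO replicate 2 or Neoribocic replicate 1, with an edgeR adjusted p of 0.0696, 0.0938 and 0.0864 for SDF2L1 and 0.119, 0.0706 and 0.199 for CRELD2. The log2 fold changes in those fits were 1.56, 1.36 and 0.88 for SDF2L1 and 0.82, 1.03 and 0.56 for CRELD2, so without Neoribocic replicate 1 the change itself was smaller. MANF, a secreted ER stress protein that binds BiP, had 143 and 148 CPM with Neoribocic, against 106 and 109.7 CPM with DMSO. Its groups were separate, but 0.43 ± 0.18 did not pass (edgeR adjusted p = 0.0875). Of the 13 chaperones and partners 4 thus rose, 2 fell and 7 had no call, against 40.4% of all tested genes called, with a median of 0.40. The median was 0.23 without DMSO replicate 1, and with the correction it was 0.054, with 2 genes higher and 1 lower.

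Of the 7 enzymes that form and shuffle disulfides P4HB rose and 6 had no call in the uncorrected fit, while with the correction ERO1B was higher, TXNDC5 lower and P4HB without a call. Over all tested genes 40.4% were called without the correction and 36.1% with it. P4HB (ENSG00000185624), the classical protein disulfide isomerase, had 991 and 910.3 CPM with Neoribocic, against 368 and 657 CPM with DMSO. It rose by 0.89 ± 0.28 (edgeR adjusted p = 0.0375), with DMSO libraries far apart. Of its exon bases 10.0% overlap a gene on the opposite strand. The call was lost without DMSO replicate 1 (log2 0.53), Neoribocic replicate 1 or Neoribocic replicate 2 (edgeR adjusted p = 0.110, 0.158 and 0.0850) and with the correction (log2 0.48; edgeR adjusted p = 0.179). PDIA4, PDIA3 and PDIA6, isomerases of the same family, stood at 0.51 ± 0.19, -0.06 ± 0.19 and -0.21 ± 0.18 (edgeR adjusted p = 0.0626, 0.827 and 0.369). PDIA4 passed with upper-quartile factors, library totals and DESeq2 (adjusted p = 0.0283, 0.0366 and 0.0399). With the correction PDIA4 was at 0.25 and did not pass (edgeR adjusted p = 0.285). PDIA3 shares 36.5% of its 50-base words with other genes, the pseudogene PDIA3P1 among them, and 25.2% of the exon bases of PDIA6 overlap ATP6V1C2 on the opposite strand, so both values are uncertain. TXNDC5, another family member, stood at -0.42 ± 0.18 (edgeR adjusted p = 0.0939) and passed at -0.56 with the correction (edgeR adjusted p = 0.0217), though 60.6% of its exon bases also belong to the read-through gene BLOC1S5-TXNDC5, so how its reads were assigned is uncertain. ERO1A, the oxidase that recharges these isomerases, had 124 and 189 CPM with Neoribocic, against 215 and 293 CPM with DMSO. Its groups were separate, and -0.70 ± 0.26 missed the threshold (edgeR adjusted p = 0.0611), with a corrected value of -0.03. The less abundant oxidase ERO1B had 10.8 and 14.0 CPM with Neoribocic and 13.6 and 10.4 CPM with DMSO, which overlap, at 0.04 ± 0.26 (edgeR adjusted p = 0.916), and passed at 0.66 with the correction (edgeR adjusted p = 0.0290). Chaperones and oxidoreductases together made 5 rises and 2 falls among 20 genes, against 40.4% of all tested genes called, with a median of 0.05. Their summed level was 8246 and 8523 CPM with Neoribocic, against 7660 and 7830 CPM with DMSO.

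The subunits of the SEC61 channel, through which proteins enter the ER, changed in opposite directions. SEC61A1 (ENSG00000058262), the pore subunit, had 402 and 405 CPM with Neoribocic, against 694 and 909.5 CPM with DMSO, a fall of 0.99 ± 0.21 (edgeR adjusted p = 0.00733) that was 1.17 with the correction (edgeR adjusted p = 0.00440). The fall had an edgeR adjusted p of 0.0572 without Neoribocic replicate 1. SEC61B (ENSG00000106803), a small accessory subunit, had 72.3 and 48.0 CPM with Neoribocic, against 34.7 and 32.7 CPM with DMSO, a rise of 0.84 ± 0.25 (edgeR adjusted p = 0.0277). Its transcript is the shortest of the set at 545 bases, and its corrected value was 0.12 (edgeR adjusted p = 0.574). The SEC61B call was also lost without DMSO replicate 1, DMSO replicate 2 or Neoribocic replicate 1 (edgeR adjusted p = 0.0825, 0.105 and 0.200), and in the last of these fits the log2 fold change was 0.52.

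**Figure D3:**
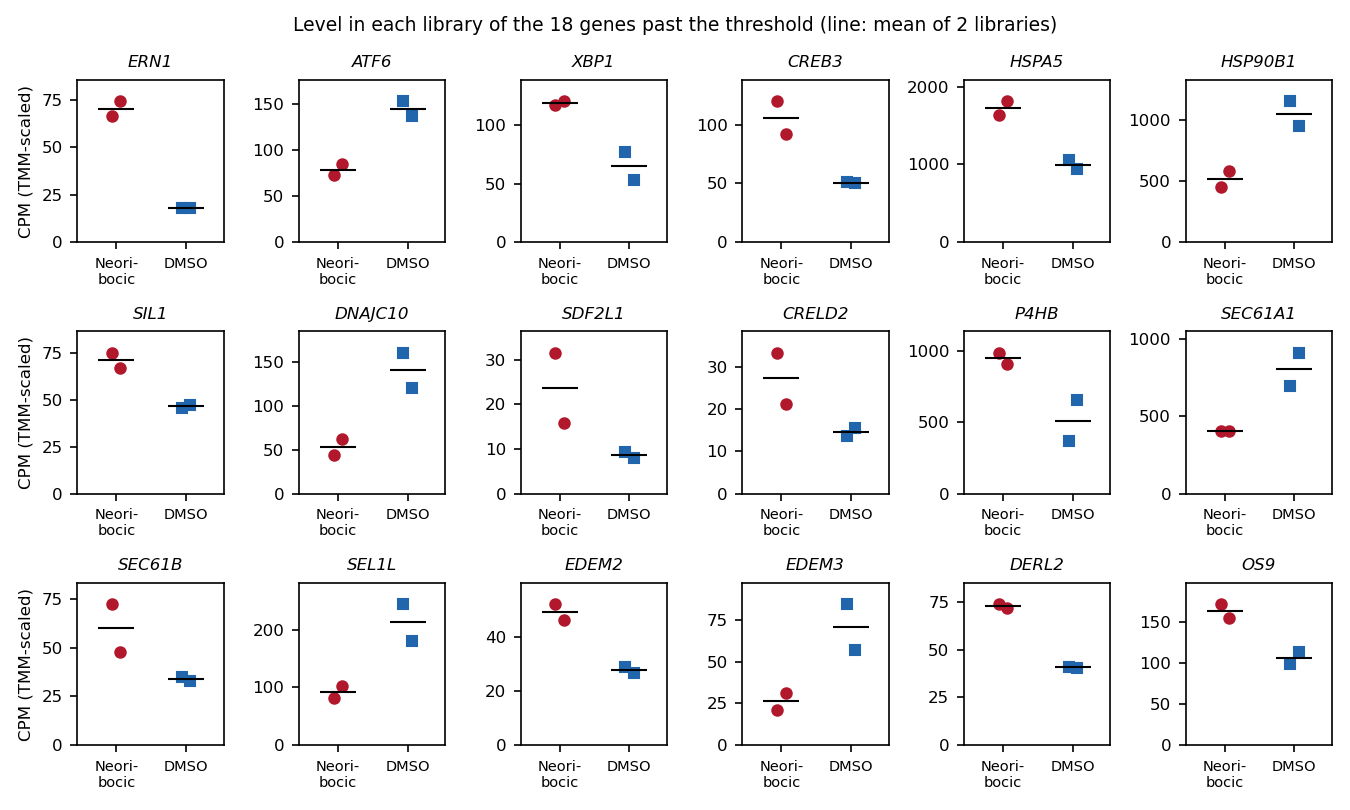
Level in each library (y axis, TMM-scaled CPM from 0) of the 18 genes past the threshold, with Neoribocic libraries as red circles, DMSO libraries as blue squares, replicate 1 left of replicate 2, and a line at each mean. ERN1 and DERL2 have close replicates in both groups, whereas SDF2L1, CRELD2 and SEC61B have Neoribocic libraries that differ from each other.

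In the degradation branch 3 of 11 genes rose, 2 fell and 6 had no call, with a median of 0.16. Over all tested genes 40.4% were called. The mannose-trimming proteins EDEM1, EDEM2 and EDEM3 mark glycoproteins for disposal and did not change alike. EDEM2 (ENSG00000088298) had 52.0 and 46.3 CPM with Neoribocic, against 28.8 and 26.5 CPM with DMSO, and rose by 0.83 ± 0.21 (edgeR adjusted p = 0.0156). EDEM3 (ENSG00000116406) had 21.0 and 31.6 CPM with Neoribocic, against 84.8 and 57.4 CPM with DMSO, and fell by 1.43 ± 0.29 (edgeR adjusted p = 0.00629). EDEM1 (ENSG00000134109), another textbook target of spliced XBP1, had 96.2 and 111 CPM with Neoribocic and 99.8 and 85.7 CPM with DMSO, which overlap, at 0.16 ± 0.20 (edgeR adjusted p = 0.544). The correction moved EDEM1 to 0.80, past the threshold (edgeR adjusted p = 0.00884), EDEM2 to 0.33 (0.150) and EDEM3 to -0.60 (0.0416). With the replicate number as a block beside the correction, EDEM3 was at -0.595 and lost its call (edgeR adjusted p = 0.0577). EDEM2 also lost its call without DMSO replicate 2 or Neoribocic replicate 1 (edgeR adjusted p = 0.0677 and 0.0863).

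The derlins, membrane proteins of the export channel, likewise differed from one another. DERL2 (ENSG00000072849) had 74.0 and 72.3 CPM with Neoribocic, against 41.03 and 40.5 CPM with DMSO. It rose by 0.84 ± 0.20 (edgeR adjusted p = 0.0110), and stood at 1.46 with the correction (edgeR adjusted p = 0.00386). Without Neoribocic replicate 1 its edgeR adjusted p was 0.0579. DERL1 had 100.1 and 103 CPM with Neoribocic, against 105 and 126 CPM with DMSO, at -0.19 ± 0.19 (edgeR adjusted p = 0.451), so that the ratio of DERL2 to DERL1 in CPM was 0.740 and 0.703 with Neoribocic, against 0.390 and 0.321 with DMSO. DERL3 was barely detected, at 0.424 and 0.442 CPM with Neoribocic and 0.536 and 0.884 CPM with DMSO, and 77.0% of its exon bases overlap SMARCB1 on the opposite strand, so its log2 fold change of -0.71 ± 0.52 (edgeR adjusted p = 0.305) and its corrected one of -1.68 (edgeR adjusted p = 0.0439) are uncertain.

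Among genes of the ubiquitin ligase complex that receives ERAD clients, SEL1L fell and OS9 rose in the uncorrected fit. With the correction neither had a call. SEL1L (ENSG00000071537), the adaptor that holds the complex together, had 81.2 and 103 CPM with Neoribocic, against 245 and 181 CPM with DMSO, and fell by 1.21 ± 0.23 (edgeR adjusted p = 0.00458). Its transcript has 7925 bases, and the corrected value was -0.31 (edgeR adjusted p = 0.126). SYVN1, the ligase HRD1 itself, had 122 and 129 CPM with Neoribocic, against 86.0 and 104 CPM with DMSO, at 0.41 ± 0.19 (edgeR adjusted p = 0.124). Its corrected value was 0.03 (edgeR adjusted p = 0.889). OS9 (ENSG00000135506), a lectin that delivers glycoproteins to SEL1L, had 172 and 155 CPM with Neoribocic, against 98.6 and 113 CPM with DMSO, and rose by 0.62 ± 0.19 (edgeR adjusted p = 0.0308). The OS9 call was lost without any 1 of the 4 libraries (edgeR adjusted p of 0.0566 to 0.157) and with the correction (log2 0.28; edgeR adjusted p = 0.126), and 13.5% of its exon bases overlap a gene on the opposite strand. HERPUD1 (ENSG00000051108), a membrane scaffold of the complex and a sensitive ER stress gene, had 92.6 and 64.4 CPM with Neoribocic and 58.1 and 69.0 CPM with DMSO, which overlap, at 0.30 ± 0.24 (edgeR adjusted p = 0.329). VCP (ENSG00000165280), the ATPase that pulls clients into the cytosol, had 449 and 401 CPM with Neoribocic and 410.3 and 383 CPM with DMSO, at 0.10 ± 0.19 (edgeR adjusted p = 0.698).

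No test compared the roles, and their values are set side by side here. Signalling genes had calls for 4 of 8, folding genes for 7 of 20, degradation genes for 5 of 11 and channel genes for 2 of 2, against 40.4% of all tested genes, and the medians of the first 3 roles, -0.04, 0.05 and 0.16, lay near the 0.01 of all tested genes. With the correction these medians were 0.42, 0.09 and 0.17. Summed levels of the 11 degradation genes were 1261 and 1216 CPM with Neoribocic, against 1258 and 1188 CPM with DMSO, and those of the 8 signalling genes 715 and 729 CPM with Neoribocic, against 694 and 766 CPM with DMSO, and for both roles the groups overlap. The sum of the 2 channel genes was 474 and 453 CPM with Neoribocic, against 729 and 942 CPM with DMSO. In these sums both Neoribocic libraries were below both DMSO libraries for the channel genes and above them for the folding genes. Abundant genes weigh most in a sum. SEC61A1 held 402 and 405 CPM of the channel sum with Neoribocic, while both Neoribocic libraries lay above both DMSO libraries for SEC61B. Counted by gene, they lay above for 9 of 20 folding genes and below for 7, against 37.8% and 37.3% of all tested genes.

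Genes with promoter elements were found among rises, falls and genes without a call. Of the 11 genes with an ERSE or ERSE-II, 4 rose (SDF2L1, CRELD2, XBP1 and HSPA5), HSP90B1 fell, and CALR, CANX, ERO1B, PDIA6, HERPUD1 and HYOU1 had no call. These 5 calls among 11 genes are close to the 43.9% of the set and the 40.4% of all tested genes. With the correction HSPA5 and ERO1B were higher, HSP90B1 was lower and the other genes had no call. HSP90B1 carried 2 ERSEs and HYOU1 2 ERSE-II matches. The core of a further element, UPRE (TGACGTGG), lay in the windows of DNAJC10, HYOU1, TXNDC5 and VCP, or 10.5% of genes against 0.927% in the whole table, and in HYOU1 it overlaps an ERSE-II. The core of the ATF4 element lay in that of HERPUD1 alone, or 2.6% against 1.08%. A match describes these letters only.

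**Figure D4:**
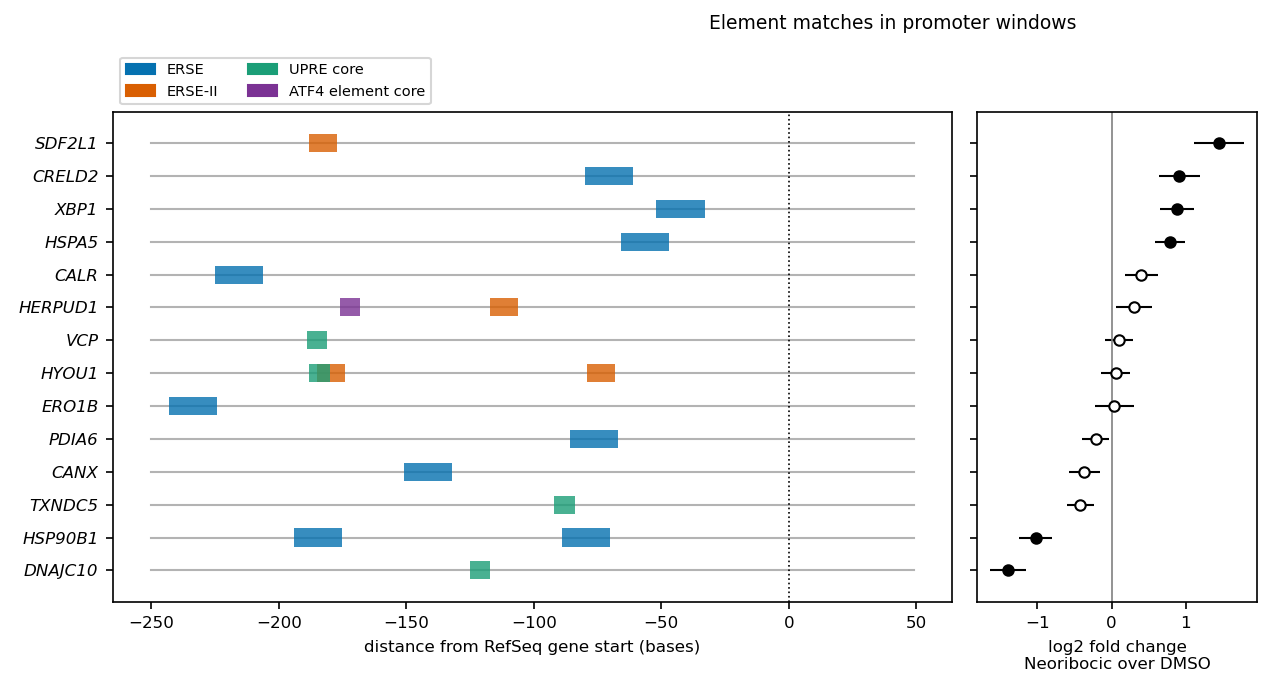
Positions of element matches relative to the RefSeq gene start (x axis of the left panel, in bases; 1 window a gene, the first of the table with a match) for the 14 genes of the set with any match, beside their log2 fold change with 1 SE (right panel; filled dots passed the threshold). Genes are ordered by log2 fold change, and ERSE matches are found from CRELD2 at 0.92 down to HSP90B1 at -1.02.

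Other genes of the pathway were counted from lists by role. Over all tested genes the uncorrected edgeR fit to all libraries called 19.1% higher and 21.3% lower, and its counts are read against these. In the list named here the PERK arm 6 of 9 genes rose and 1, EIF2AK3, fell, with a median of 1.22. Gene counts do not measure the activity of PERK, and whether PERK raised these genes was not tested. CHAC1, a glutathione-degrading enzyme, had 31.6 and 49.9 CPM with Neoribocic, against 1.86 and 3.42 CPM with DMSO, a rise of 3.95 ± 0.39 (edgeR adjusted p = 7.55e-04). PPP1R15A, the phosphatase subunit GADD34, rose by 2.17 and DDIT3, the transcription factor CHOP, by 1.78 (edgeR adjusted p = 8.81e-04 and 0.00131), and all 3 genes kept their calls with the correction and without any 1 library. The 10 genes reported to depend on XBP1, 7 of them in the set, had 0 rises and 3 falls by edgeR with a median of -0.10. DESeq2 and limma-voom also gave 0 rises and 3 falls, an unadjusted p below 0.05 gave 2 rises and 3 falls, upper-quartile factors 2 and 3, and the correction 3 and 2. Over all 13879 tested genes upper-quartile factors gave 3329 higher and 2532 lower calls. SSR1, a subunit of the translocon-associated complex, fell by 1.02 in the uncorrected fit and was at -0.07 with the correction (edgeR adjusted p = 0.00534 and 0.706), and its uncorrected call was lost without Neoribocic replicate 1 (0.0528). The 8 genes reported to depend on ATF6, all members of the set, had 2 rises and 2 falls with a median of 0.35, and 1 and 1 with a median of 0.040 with the correction. Among 26 further genes of glycan processing and folding 2 rose and 5 fell, with a median of 0.15. UGGT1, the glucosyltransferase that senses unfolded glycoproteins, fell by 1.39 (corrected -0.47; edgeR adjusted p = 0.00370 and 0.0824), and the luminal protein gene ERP29 rose by 1.09 (corrected 0.88; edgeR adjusted p = 0.00630 and 0.0178). In the same list MOGS was lower at -1.04 and kept its call (corrected -1.60; edgeR adjusted p = 0.00997 and 0.00632). PPIB was higher at 0.92 and lost its call (corrected 0.12; edgeR adjusted p = 0.0206 and 0.566). The ERP29 call was lost without Neoribocic replicate 1 (edgeR adjusted p = 0.0501). Of 19 translocation and signal-processing genes 1 rose and 4 fell, with a median of 0.07. The rise was that of SSR4, at 1.18, and it was lost with the correction (0.35; edgeR adjusted p = 0.00701 and 0.118). Of 24 further ERAD factors 5 rose and 4 fell, with a median of 0.04. The ubiquitin ligase gene RNF5 rose by 1.30 (edgeR adjusted p = 0.00337) and kept its call at 0.65 with the correction (0.0164). ERLEC1 was lower at -0.85 and kept its call at -0.57 with the correction (edgeR adjusted p = 0.0143 and 0.0257). UBE2J1, a ubiquitin-conjugating enzyme of the ER, fell by 0.96 (corrected -0.36; edgeR adjusted p = 0.00764 and 0.126). The UBE2J1 call was also lost without Neoribocic replicate 1 (0.0667). Without that library, which leaves 1 Neoribocic library, fewer genes passed in each of these lists and over all genes. The median log2 fold change was then 1.305 in the PERK arm, -0.086 among XBP1-dependent genes and 0.17 among ATF6-dependent genes. It was 0.11 in glycan processing and folding, -0.053 in translocation and -0.0070 among further ERAD factors, against -0.000395 over all genes. The correction called 16.6% of all genes higher and 19.5% lower. With it the counts of rises and falls were 7 and 0 in the PERK arm, 3 and 3 in glycan processing and folding, 2 and 3 in translocation and 8 and 3 among the ERAD factors. The medians were 0.98, 0.054, -0.068 and -0.065 in that order.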

How the data were processed

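The authors deposited whole-number counts for each Ensembl gene, which the values show to be unnormalized. Aligner, counter and use of strand: not given in the sources used here. GRCm38 and mm10, both mouse builds, stand in the submitters' processing notes although the IDs are human, so no coordinates were taken from the counts. A symbol table held 20148 of the 20263 IDs. Among counts of 1 to 19 even numbers made 62.3% to 65.4%, against 50.3% to 51.3% among counts of 20 to 200, as when both mates of a pair are counted. Total counts ran from 34774542 to 43014212 per library, and each group had 2 libraries.

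Low genes were removed by filterByExpr of edgeR 4.0.16 (R 4.3.3), TMM scaled the libraries, and the treatment term of a robust quasi-likelihood fit was tested for every gene left (threshold 0.05). SE is the size of the log2 fold change divided by the square root of F. The code was tested on simulated data of 13700 genes, of which 67, 67 and 66 were changed by 1.5, 2 and 4 fold. It recovered 0, 2 and 46 of these, with 0 false calls among 48. Far more genes were called in the real data, which eases the adjusted threshold, so these rates do not carry over directly. A gene without a call may still have changed. Transcript length and GC content came from 1 GENCODE release 29 transcript per gene (principal, then longest). For the correction, log2 CPM of each library was smoothed jointly over both (mgcv 1.9-3), and the smooth entered the model as an offset. The 18 alternatives included DESeq2 1.42.0, limma-voom (limma 3.58.1), other scalings and filters, the replicate number as a block and each library left out. Promoter sequences are RefSeq's. Library replicates differed in 63.5% (Neoribocic) and 67.8% (DMSO) of genes by a chi-square test (p below 0.05) that takes counts as independent, so none was a copy. If both mates of a pair were counted, these shares are inflated. The genes, the lists, the tests and the rule for genes described in full (sensors, XBP1, HSPA5, HERPUD1, DNAJB9, EDEM1, VCP and each gene past the threshold; of other lists up to 3 per direction by smallest p) were chosen with earlier results of these data known. Library values of MANF, CREB3L2, ERO1A, ERO1B, SYVN1, DERL1 and DERL3, which that rule does not cover, were added after they were seen.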

Additional observations from a re-analysis of the deposited data

How the results depend on the processing

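The 18 calls rest on 4 libraries. Leaving out each library in turn gave 2 to 7 rises and 3 to 7 falls in the set and 2468 to 4536 calls over all genes, and ERN1, CREB3, DNAJC10, SEL1L and EDEM3 passed each time. At a threshold of 0.01 the set had 2 rises and 6 falls, and 2883 genes were called in all. Median log2 fold changes over the set, signalling, folding and degradation genes ran from 0.039 to 0.19, from -0.15 to 0.32, from 0.08 to 0.21 and from 0.027 to 0.18 without 1 library. Upper-quartile factors gave 0.22, 0.082, 0.17 and 0.29, and library totals 0.26, 0.16, 0.22 and 0.32. The median of all genes shifted by 0.12 under the first of these scalings and by 0.17 under the other. Library totals moved the share of higher calls over all genes from 47.2% to 59.6%, and within the set from 66.7% to 70.0%. With a filter of 1 CPM, which drops DERL3, the set and degradation medians were 0.14 and 0.24. With the length and GC correction, alone and with the replicate block, the signalling median was 0.42 and 0.51 and the folding median 0.087 and 0.084. Genes without a call that changed sign under these settings, in the same order, were CREB3L2 (0.26 and 0.45), HYOU1 (-0.040 and -0.039), CALR (-0.070 and -0.066), CANX (0.17 and 0.17), DNAJB11 (-0.050 and -0.035), DNAJC3 (0.18 and 0.18), MANF (-0.26 and -0.26), PDIA3 (0.38 and 0.39) and DERL1 (0.17 and 0.18), with ERO1A at 0.0033 under the second. PDIA3 was also positive at 0.064 and 0.12 under those scalings. Without 1 library the ranges of genes that changed sign were -0.86 to 0.75 for CREB3L2, -0.012 to 0.45 for MBTPS2, -0.088 to 0.22 for HYOU1, -0.13 to 0.19 for DNAJB11, -0.15 to 0.043 for PDIA3 and -0.16 to 0.24 for ERO1B. The cause was not tested. No label says that equal replicate numbers mark a pairing, and deviations of same-numbered libraries correlated at -0.0512 across genes. With the replicate block alone the set had 11 rises and 7 falls, SIL1 losing its call (edgeR adjusted p = 0.0730) and ERO1A gaining one (0.0180), and 5594 genes were called in all.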
